A study of Mus musculus with 6 samples.

Results

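ATF4 and the stress regulators and effectors that it induces were described in mouse CD8+ T cells given acetate and in control cells. The 10 genes are Atf4, Atf5, Atf3, Ddit3, Cebpb, Cebpg, Nupr1, Trib3, Chac1 and Vldlr, out of 41095 genes with values in the deposited table. They were picked by symbol and by function, leaving out metabolic enzymes and transporters, at a time when the acetate against control contrast had already been seen. Their differences between the groups are therefore a description, and neither a p-value per gene nor a score over the genes is used as evidence. Each symbol matched 1 row of the table.

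The study has 6 RNA sequencing libraries of wild-type splenic CD8+ T cells, the cytotoxic lymphocytes of the immune system, with 3 libraries of acetate-treated cells and 3 of untreated control cells. All cells were positively selected, grown for 72 h on plates that carried antibodies to CD3 (5 µg/mL) and to CD28 (2 µg/mL), which activate T cells, and fed with IL-2 (30 U/mL) in a medium that held added non-essential amino acids and pyruvate at 1% each and 2-mercaptoethanol at 50 µM. The treated cells had 48 h of acetate at what is taken as 5 mmol/L, since the unit on the label is written irregularly. The series text describes the groups as before and after treatment, so a difference in time in culture between the groups cannot be told apart from acetate, and the labels give neither mouse strain, age nor sex, nor whether replicates came from separate animals or cultures. Where replicates share a source, their spread is technical.

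ATF4 is a basic leucine zipper (bZIP) transcription factor of the integrated stress response. When kinases that sense amino acid shortage, misfolded protein in the endoplasmic reticulum, viral RNA or heme shortage phosphorylate the translation factor eIF2 alpha, general protein synthesis falls while Atf4 mRNA is translated more, so the ATF4 protein can rise without a change in its mRNA. ATF4 then pairs with C/EBP family partners on a composite site, the C/EBP-ATF response element, and switches on further transcription factors and effectors such as CHOP and TRIB3. In activated T cells the same programme is known for supplying amino acid uptake and synthesis.

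Values are FPKM, the reads of a gene per kilobase of its length, scaled to a total for the library. The libraries held 31098394 to 39140711 reads, recovered from the FPKM values and gene lengths. The scaling total was near or below these reads in acetate libraries and above them in control libraries. It was 30623300 against 31098394 reads in acetate replicate 3, and 36085100 against 35138058 reads in control replicate 3. Relative to control, acetate FPKM are thus slightly higher than under scaling to these reads. Cd8a, Cd8b1 and the CD3 genes were present in every library, and the summed FPKM of 6 CD8 T cell markers was 1307 to 1409 in acetate libraries and 1244 to 1275 in control libraries. Markers of other cells stayed low, with 4 monocyte and macrophage genes summing to 0.605 to 0.974 FPKM in acetate and 0.695 to 1.02 FPKM in control libraries, and Itgam at 0 in all. Of 4 neutrophil genes, S100a9 and Retnlg were at 0 in all libraries and the sum did not pass 0.123 FPKM. Sums for 4 CD4 T cell genes were 16.3 to 17.4 FPKM with acetate and 21.3 to 22.4 FPKM in control. The gap came from Zbtb7b, at 7.12 FPKM and 13.03 FPKM, while Cd40lg averaged 8.78 FPKM and 8.28 FPKM and Cd4 0.944 FPKM and 0.641 FPKM. Sums for 5 B cell genes were 16.8 to 18.3 and 16.8 to 18.4 FPKM, carried by Cd79b, with Ms4a1 under 0.06 FPKM. Dendritic, natural killer and erythroid markers each summed to under 0.5 FPKM in every library.

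The sequences upstream of these genes come first, because the factors among them act through short DNA sites. RefSeq promoter windows in build GRCm38.p6, each 250 bases ending just before a transcription start, were found for all 10 genes, 12 windows in all since Atf5 and Vldlr have 2 starts each. Windows were searched on both strands for TGATGNAA, the core of the C/EBP-ATF response element, where N is any base. It was found in 4 of the 12 windows, those of Atf3, Chac1, Nupr1 and 1 of Vldlr, against 3.45% of all 32851 windows. The genes were picked as ones that ATF4 induces, so this share is a description and not evidence of its own. All 4 matches read TTGCATCA, which is TGATGCAA on the other strand. The windows of Trib3 and Ddit3, which are described next to them, held no match of it. Below, capitals mark every match of a searched motif, and the stretches run 5′ to 3′ on the gene's strand from 250 to 21 bases before the start, which leaves out the last bases that other annotated transcripts of the same genes use. Exons of 2 noncoding transcripts of Gm4189, on the opposite strand, overlap the Ddit3 window by 98 and 162 of its 250 bases.
Trib3, chr2:152344081-152344310, minus strand: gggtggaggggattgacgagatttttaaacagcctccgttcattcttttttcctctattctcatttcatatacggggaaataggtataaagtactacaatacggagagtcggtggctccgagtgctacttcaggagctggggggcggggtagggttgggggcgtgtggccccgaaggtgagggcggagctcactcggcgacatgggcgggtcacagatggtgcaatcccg
Ddit3, chr10:127290543-127290772, plus strand: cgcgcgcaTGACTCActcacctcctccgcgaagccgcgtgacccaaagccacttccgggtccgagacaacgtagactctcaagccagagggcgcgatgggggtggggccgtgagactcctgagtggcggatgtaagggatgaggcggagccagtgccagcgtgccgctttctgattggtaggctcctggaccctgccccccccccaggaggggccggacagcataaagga
Chac1, chr2:119350992-119351221, plus strand: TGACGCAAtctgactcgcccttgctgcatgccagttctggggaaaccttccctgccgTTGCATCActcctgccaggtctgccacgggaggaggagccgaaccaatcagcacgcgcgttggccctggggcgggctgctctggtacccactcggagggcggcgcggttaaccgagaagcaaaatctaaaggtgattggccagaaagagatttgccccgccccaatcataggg
Atf3, chr1:191183354-191183583, minus strand: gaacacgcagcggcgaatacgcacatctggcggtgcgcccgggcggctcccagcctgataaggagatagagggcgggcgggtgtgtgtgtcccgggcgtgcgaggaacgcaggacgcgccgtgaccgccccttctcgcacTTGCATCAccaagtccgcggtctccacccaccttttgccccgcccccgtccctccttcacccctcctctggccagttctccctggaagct

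In Chac1 the element lies 193 to 186 bases before the start. A related run, TGACGCAA, lies 250 to 243 bases before it, and was added to the search after the Chac1 sequence had been seen; it occurs in 0.438% of all windows. In Atf3 the element lies 110 to 103 bases before the start. Nupr1 and Vldlr are shown only for the 30 bases around the match, because other annotated transcripts of these genes cover much of their windows. The Nupr1 match also lies 110 to 103 bases before the start and the Vldlr match 200 to 193 bases before the downstream of its 2 starts.
Nupr1, chr7:126625562-126625591, minus strand: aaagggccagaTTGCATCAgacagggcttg
Vldlr, chr19:27216809-27216838, plus strand: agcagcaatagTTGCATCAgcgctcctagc

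For the AP-1 element, TGANTCA was searched with any base at N. It was found only in the Ddit3 window among the 12, as TGACTCA 242 to 236 bases before the start. Any such run, whatever its base at N, was in 6.75% of all windows. The cyclic AMP response element TGACGTCA, present in 1.55% of all windows, and the endoplasmic reticulum stress element, searched as its full consensus and present in 0.113%, were in none of the 12. No motif searched overlapped another in these windows. A match is a run of letters and not a bound site, and a window without a match says nothing of sites outside it.

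All 10 genes were lower with acetate in these libraries, and in each of them the 3 acetate values lay below the 3 control values. Trib3, Nupr1 and Ddit3 were at 19.9%, 19.1% and 29.7% of the control mean, and Vldlr at 19.6% on very few reads. Chac1 and Atf5 were at 43.5% and 44.5%, and Atf4, Atf3, Cebpg and Cebpb at 68.1% to 75.6%. Of all genes tested, 23.1% had their acetate values below their control values in this way. In bulk RNA, less RNA per cell and fewer cells that express a gene cannot be told apart.

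**Figure D1:**
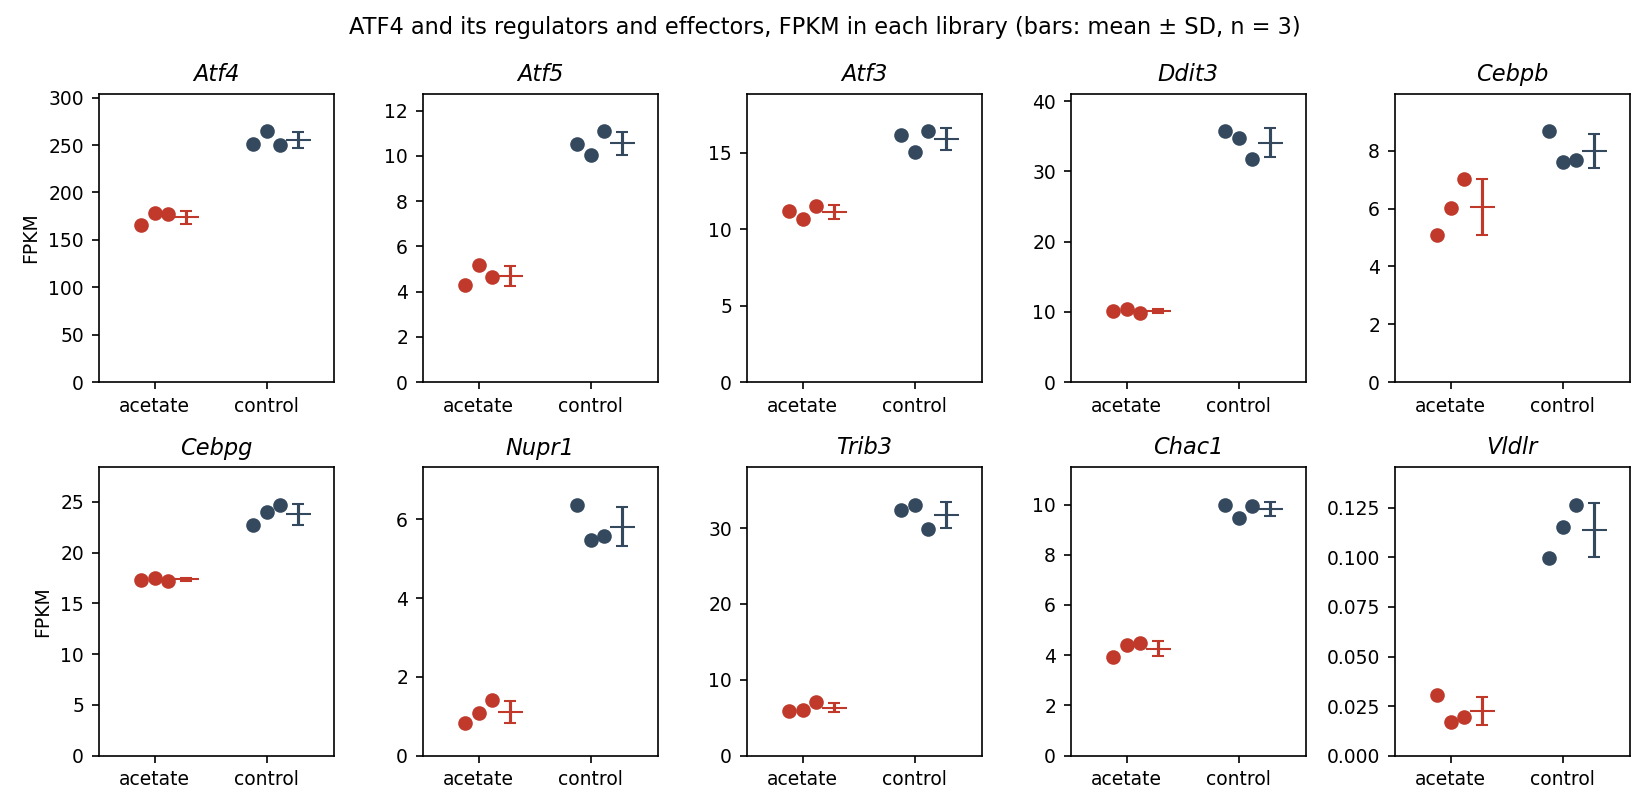
FPKM of the 10 genes in each library, with acetate libraries left and control libraries right in each panel, points in replicate order 1 to 3, and mean ± SD (n = 3) beside them. In every panel all acetate points lie under all control points, with the narrowest gap for Cebpb and the widest for Trib3 and Nupr1.

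Atf4, the factor at the head of the programme, was by far the most abundant of these transcripts in both groups. It had 166, 178 and 178 FPKM in acetate libraries, against 251, 265 and 250 FPKM in control libraries. The groups lay well apart, and Atf4 stood above 97.4% of tested genes in acetate cells and 98.5% in control cells, so it remained among the most abundant transcripts of both. The change was -0.55 ± 0.0449 on the log2(FPKM + 1) scale (limma, SE), that is 68.1% of the control mean. In the table's own C57BL/6NJ positions the gene lies on chromosome 15 from 83765878 to 83768234.

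Atf5, a bZIP factor related to ATF4 and likewise controlled at translation, had 4.29, 5.16 and 4.63 FPKM in acetate libraries, against 10.5, 10.1 and 11.1 FPKM in control libraries. The highest acetate value was 51.4% of the lowest control value. The log2 change was -1.02 ± 0.0674 (SE). Its annotated span overlaps the opposite-strand gene Il4i1 by 512 bases, and whether reads were counted by strand is not given in the sources used here. Il4i1 averaged 25.3 ± 0.488 FPKM with acetate and 27.4 ± 0.344 FPKM in control (SD, n = 3).

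Atf3, a stress-induced bZIP factor that mostly represses, had 11.2, 10.6 and 11.5 FPKM in acetate libraries, against 16.2, 15.1 and 16.4 FPKM in control libraries. Replicates were tight, with a coefficient of variation of 4.08% with acetate and 4.55% in control, and the log2 change was -0.48 ± 0.0493 (SE). Its promoter window is 1 of the 4 with TTGCATCA.

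Ddit3 encodes CHOP, a C/EBP relative that favours cell death when stress lasts. The gene had 10.1, 10.4 and 9.82 FPKM in acetate libraries, against 35.7, 34.7 and 31.8 FPKM in control libraries. The highest acetate value was 32.9% of the lowest control value. The log2 change of -1.66 ± 0.052 (SE) was the 4th largest fall among all genes tested. Ddit3 stood above 48.6% of tested genes in acetate cells and 81.8% in control cells. Its span overlaps the opposite-strand gene Mars, which encodes the methionyl-tRNA synthetase, by 68 bases. Mars averaged 49.6 ± 1.36 FPKM with acetate and 52.0 ± 1.43 FPKM in control (SD, n = 3).

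The C/EBP partners of ATF4 differed less. Cebpg encodes a short C/EBP protein that lacks an activation domain and pairs with ATF4. It had 17.3, 17.5 and 17.2 FPKM in acetate libraries, against 22.7, 24.0 and 24.7 FPKM in control libraries. The acetate values were nearly equal to each other, with a coefficient of variation of 0.935%, and the log2 change was -0.43 ± 0.0418 (SE). The 3 noncoding genes of low abundance that lie within the span of Cebpg did not pass a mean of 1.52 FPKM in either group.

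Cebpb, which encodes an inducible activator of the same family, had 5.08, 6.03 and 7.01 FPKM in acetate libraries, against 8.68, 7.60 and 7.68 FPKM in control libraries. Acetate replicate 3 came to within 92.2% of the lowest control value. The coefficient of variation with acetate, 16.0%, was the highest among the genes past 2 FPKM in both groups. The log2 change was -0.36 ± 0.102 (SE). Its call was lost without acetate replicate 2 (limma adjusted p = 0.0673), without control replicate 1 (adjusted p = 0.0859) and without control replicate 3 (adjusted p = 0.0534), with no filter on low values (adjusted p = 0.0946) and with replicate number as a block (adjusted p = 0.055). Cebpb is also a gene of myeloid cells. Of 5 markers listed for these cells, Lyz2 had no values under that symbol, and Itgam was at 0 in all libraries. Csf1r averaged 0.0134 FPKM with acetate and 0.0038 FPKM in control, Adgre1 0.0193 FPKM and 0.0955 FPKM, and Cd14 0.770 FPKM and 0.745 FPKM. The part of myeloid cells in the Cebpb values was not tested.

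Nupr1 encodes a small chromatin-associated protein that many stresses induce. It had 0.833, 1.09 and 1.40 FPKM in acetate libraries, against 6.38, 5.48 and 5.59 FPKM in control libraries. These values came from 82, 95 and 108 reads with acetate and 527, 499 and 507 reads in control. The highest acetate library was at 25.6% of the lowest control library. The log2 change of -1.70 ± 0.109 (SE) was the 3rd largest fall of all genes tested; it understates the change of a gene this low, and the change on recovered reads was -2.48 ± 0.177 (limma voom, SE).

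Among the effectors, Trib3 encodes a pseudokinase that binds ATF4, CHOP and the kinase AKT and holds the response in check. It had 5.92, 6.03 and 7.05 FPKM in acetate libraries, against 32.3, 33.1 and 29.9 FPKM in control libraries. No gene of the 10867 tested fell further on the log2(FPKM + 1) scale, at -2.16 ± 0.0691 (SE). Trib3 stood above 36.0% of tested genes in acetate cells and 80.2% in control cells, so it was placed close to Ddit3 in control cells and below it in acetate cells. The Trib3 promoter stretch printed above held none of the motifs searched.

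Chac1 encodes an enzyme that breaks down glutathione and is used as a marker of ATF4 activity. It had 3.92, 4.39 and 4.49 FPKM in acetate libraries, against 9.996, 9.48 and 9.95 FPKM in control libraries. The groups were far apart and the replicates close, and the log2 change was -1.04 ± 0.0571 (SE). Its window is the only one of the 12 with both TTGCATCA and TGACGCAA, but TGACGCAA was searched only after it had been seen there.

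Vldlr, the receptor for very low density lipoprotein and reelin, known to be induced through ATF4 under endoplasmic reticulum stress in mouse liver cells, was barely detected. It had 12, 6 and 6 reads in acetate libraries, against 33, 42 and 46 reads in control libraries, or 0.0305, 0.0172 and 0.0195 FPKM against 0.0997, 0.115 and 0.127 FPKM. Both ends of a read pair appear to have been counted, so these are fewer independent fragments than reads. Vldlr was below the filter of a mean of 1 FPKM and was the only 1 of the 10 not tested. Its log2 change was -0.12 ± 0.0187 (SE) with no filter and -2.34 ± 0.445 (SE) on recovered reads with limma voom, so its size rests on the scale used. It was called lower in both of these fits, as were 6.73% of all genes with no filter and 20.8% with voom. With replicate number as a block and no filter its call was lost (limma adjusted p = 0.071).

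Across the 9 genes tested, limma with Benjamini-Hochberg adjustment over all 10867 genes placed all 9 past the threshold of 0.05 as lower, against 16.9% of all genes tested called lower. Over all genes 1836 were lower and 2393 higher, and 2443 and 1396 after rescaling to TPM, where the values of every library have the same sum, which moved the median change by -0.07. Since the genes were listed with this contrast known, nothing is read from that count. The median log2 change of the 9 was -1.02, beside 0.02 over all genes tested. A fall of 1 or more on the log2 scale was seen in 41 of all genes, or 0.377%, and 5 of the 9 genes were among them, Trib3, Nupr1, Ddit3, Chac1 and Atf5.

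**Figure D2:**
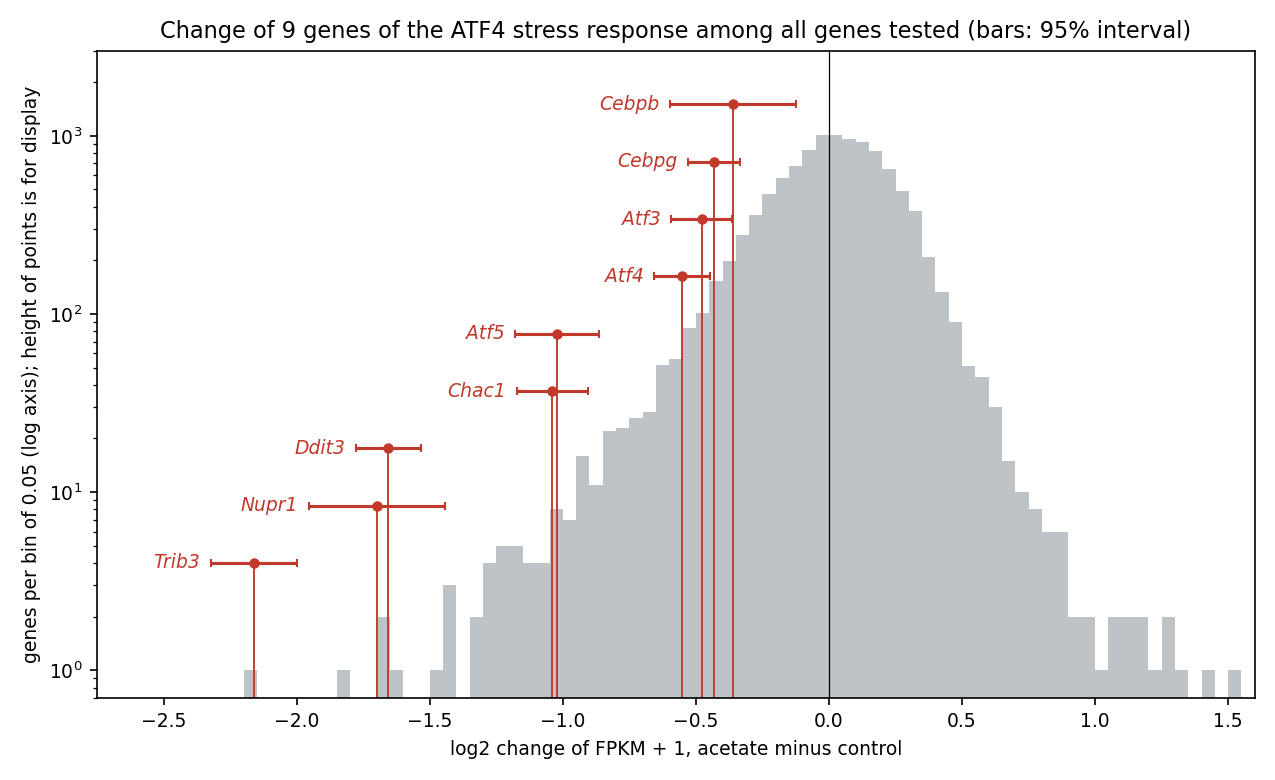
Histogram of the log2 change (acetate minus control, FPKM + 1) of all 10867 genes tested, on a log count axis, with the 9 tested genes of the ATF4 response drawn as points with 95% intervals at heights chosen for display. Trib3 at -2.16 marks the left end of the histogram, while Atf4, Atf3, Cebpg and Cebpb lie between -0.55 and -0.36, within its left shoulder.

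The order of levels differed between the groups. In acetate cells Atf4 was followed by Cebpg, Atf3 and Ddit3, then by Trib3, Cebpb, Atf5 and Chac1, whose neighbouring values overlapped between libraries, and by Nupr1 and Vldlr. In control cells Atf4 was followed by Ddit3 and Trib3, which overlapped each other, and then by Cebpg, Atf3, Atf5, Chac1, Cebpb, Nupr1 and Vldlr, with no other neighbours overlapping. Ddit3 and Trib3 thus stood above Cebpg and Atf3 in every control library and below both in every acetate library.

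Dividing each gene by Atf4 in the same library removes any effect of library scaling. It splits the genes into those whose ratios overlapped between the groups and those whose acetate ratios were all lower. Trib3 was 3.57%, 3.39% and 3.97% of Atf4 in acetate libraries, against 12.9%, 12.5% and 11.96% in control libraries. Ddit3 was 6.10%, 5.87% and 5.53% of Atf4 in acetate libraries, against 14.2%, 13.1% and 12.7% in control libraries. Nupr1 was 0.503%, 0.613% and 0.790% of Atf4 with acetate, against 2.54%, 2.07% and 2.24% in control. For these 3 genes, and for Chac1, Atf5 and Vldlr, all acetate ratios lay below all control ratios. The share of all genes tested with such ratios was not worked out, so how unusual this is cannot be judged.

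Chac1 averaged 2.45 ± 0.0821% of Atf4 with acetate and 3.85 ± 0.232% in control, and Atf5 averaged 2.70 ± 0.175% and 4.14 ± 0.324% (SD, n = 3 each). Vldlr averaged 0.013 ± 0.00471% with acetate and 0.0447 ± 0.0056% in control. In the other 3 genes the mean ratios of the groups differed less. Atf3 averaged 6.41 ± 0.397% of Atf4 with acetate and 6.24 ± 0.478% in control, Cebpg 10.005 ± 0.397% and 9.33 ± 0.499%, and Cebpb 3.47 ± 0.447% and 3.14 ± 0.295%. The ratios of these 3 overlapped between the groups, which does not show that they moved with Atf4. The element TTGCATCA was in windows on both sides of this split. The ratios of Atf3 overlapped between the groups, while those of Chac1, Nupr1 and Vldlr, the last on very few reads, were lower with acetate. Whether the element bears on the split was not tested.

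**Figure D3:**
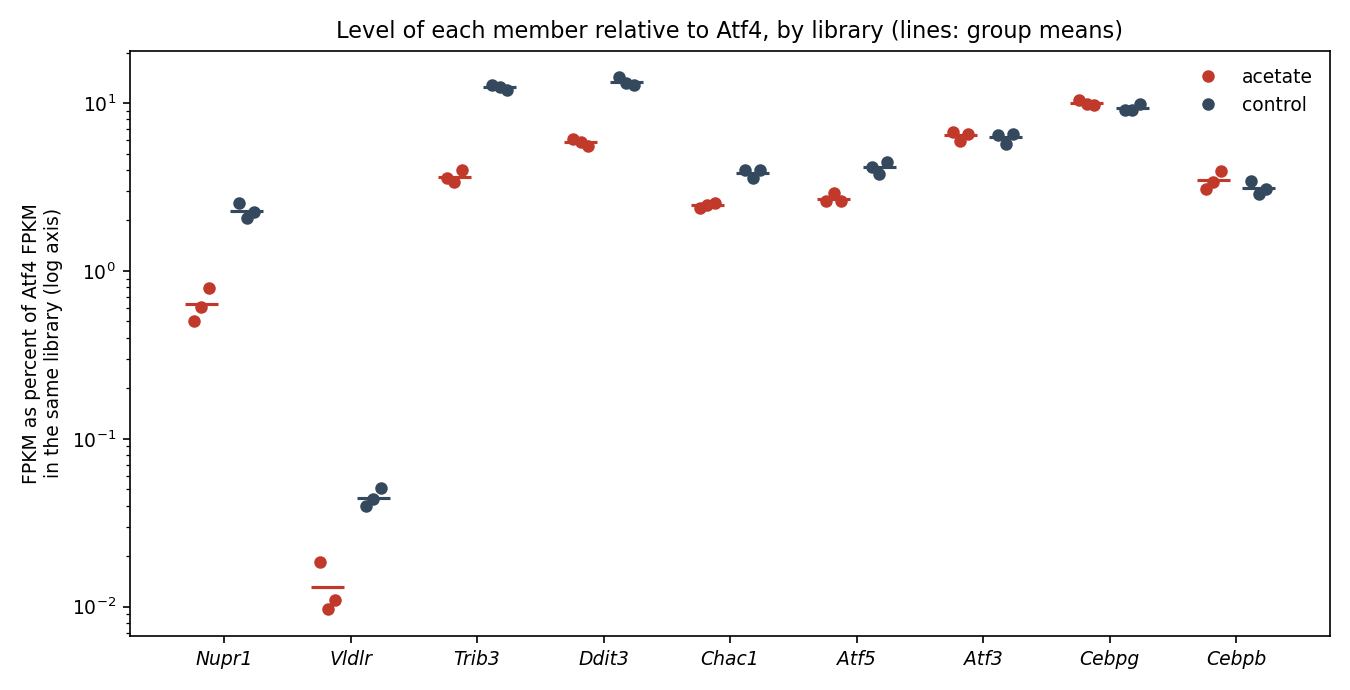
Each gene's FPKM as a percent of Atf4 FPKM in the same library, on a log axis, with acetate points left of control points and lines at the group means; genes run from the lowest to the highest ratio of acetate to control. Nupr1, Vldlr, Trib3, Ddit3, Chac1 and Atf5 show 2 separate clouds, whereas the points of Atf3, Cebpg and Cebpb overlap.

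Genes whose values across the 6 libraries were most like those of Atf4, by Pearson correlation of log2(FPKM + 1), included Ghitm (r = 0.9991), Mthfd2 (0.9982), Ostf1 (0.9974) and Grap (0.9967). For Trib3 they were Lars (0.9991), Rnf157 (0.9988), Cyb5r1 (0.9987), Dse (0.9987) and Zmynd8 (0.9985). Of 9578 protein-coding genes, 603 reached r of 0.95 with Atf4 and 733 with Trib3, because the 2 groups of libraries set most of each correlation. Mthfd2, a mitochondrial folate enzyme, averaged 92.6 ± 2.24 FPKM with acetate and 126 ± 2.64 FPKM in control, and Lars, the leucyl-tRNA synthetase, 67.7 ± 0.673 FPKM and 85.9 ± 0.857 FPKM (SD, n = 3 each). Atf4 and Trib3 correlated at 0.9924. Cebpb was the least like either, at 0.85 with Atf4.

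Upstream of Atf4, the genes of the eIF2 alpha kinases and phosphatase were not far from all genes tested in their calls. Of 11 tested, 1 fell and 3 rose, against 16.9% lower and 22% higher among all genes tested, and 7 did not pass. Their median log2 change was 0.02, the same as over all genes tested. Ppp1r15a, which encodes GADD34, the stress-induced phosphatase subunit that CHOP and ATF4 induce, fell to 11.5 ± 0.598 FPKM with acetate, against 18.3 ± 0.547 FPKM in control (limma adjusted p = 0.000192). Its constitutive counterpart Ppp1r15b averaged 39.2 ± 0.37 FPKM and 40.8 ± 1.19 FPKM (adjusted p = 0.249). Eif2ak2, the kinase PKR that senses double-stranded RNA, rose to 11.5 ± 0.641 FPKM with acetate, against 9.10 ± 0.274 FPKM in control (adjusted p = 0.00325), and Eif2s1, eIF2 alpha itself, to 115 ± 1.19 FPKM, against 96.7 ± 3.6 FPKM (adjusted p = 0.00225). Eif2ak4, the amino acid sensor GCN2, averaged 10.2 ± 0.457 FPKM and 9.04 ± 0.119 FPKM (adjusted p = 0.0324), a call lost with the replicate block, with no filter, with TPM, with voom on recovered reads, and without acetate replicate 1 or 2 or any control replicate. Eif2ak3, the endoplasmic reticulum kinase PERK, averaged 12.6 ± 0.532 FPKM with acetate and 13.8 ± 0.604 FPKM in control, and Eif2ak1, the heme-regulated kinase, 12.5 ± 0.267 FPKM and 11.5 ± 0.301 FPKM, and neither passed.

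**Figure D4:**
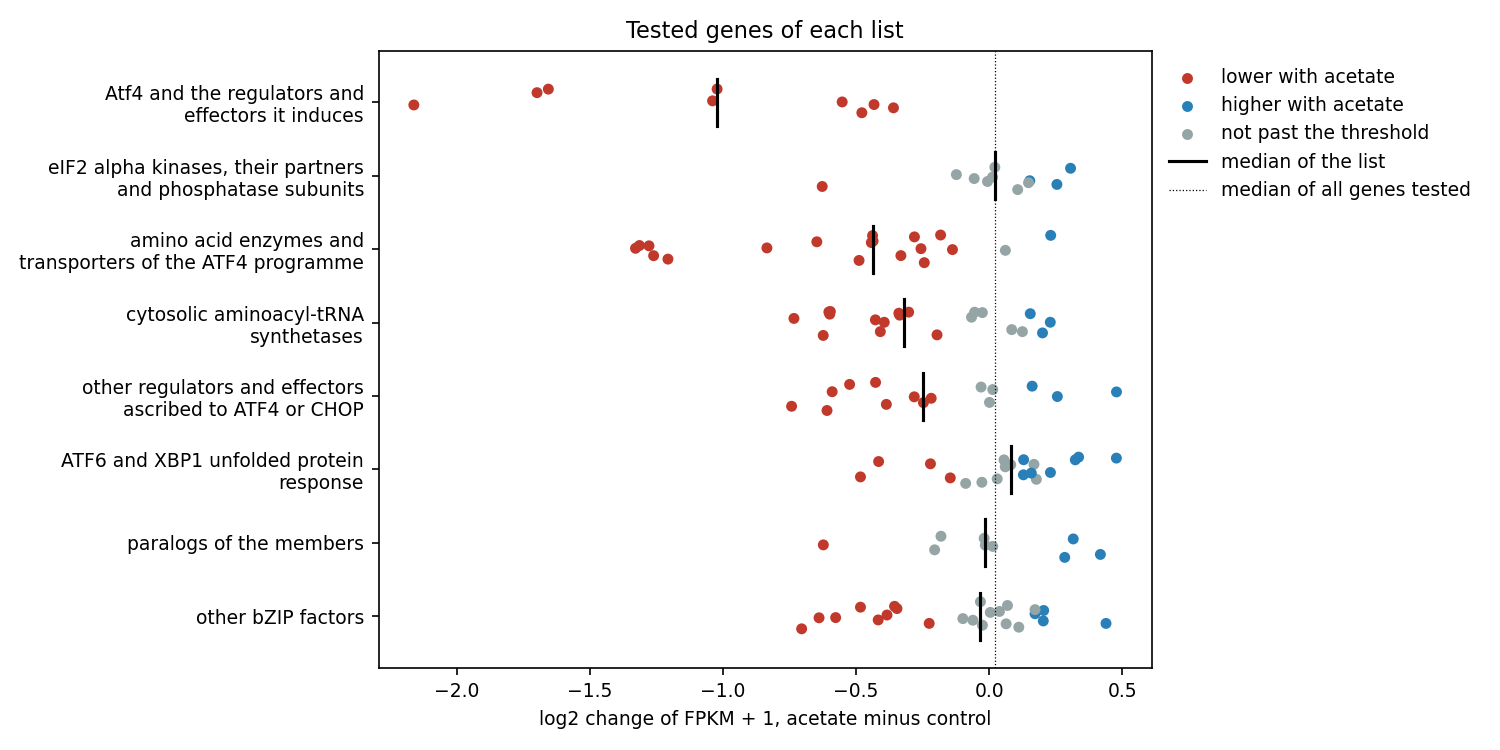
Log2 change (acetate minus control, FPKM + 1) of every tested gene of the 9 tested ATF4 response genes and of 7 lists, 1 point a gene, with the median of each list as a black line and the median of all genes tested as a dotted line. The 9 genes and the amino acid list lie farthest left, with medians of -1.02 and -0.44, while the eIF2 alpha, ATF6 and XBP1, paralog and other bZIP lists straddle the dotted line.

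Downstream, the amino acid genes of the same programme were lower. Of 19 tested enzymes and transporters 17 fell and 1 rose, against 16.9% lower and 22% higher among all genes tested, with a median log2 change of -0.44. Cth, an enzyme of cysteine synthesis, fell to 39.9% of the control mean (adjusted p = 9.11e-06), the arginine and lysine transporter Slc7a3 to 36.5% (adjusted p = 9.11e-06), and Gpt2, the mitochondrial alanine aminotransferase, to 37.9% (adjusted p = 2.51e-05). The 1 that rose was the cystine transporter Slc7a11, at 3.06 ± 0.258 FPKM with acetate and 2.46 ± 0.0628 FPKM in control (adjusted p = 0.0354), a call lost with the replicate block, with no filter, with TPM, and without acetate replicate 2 or any control replicate. Of 20 cytosolic aminoacyl-tRNA synthetase genes, 12 fell and 3 rose, beside the same shares of all genes, with a median of -0.32. Wars fell to 65.3% of the control mean (adjusted p = 9.89e-05), Aars to 64.2% (adjusted p = 0.00012) and Cars to 59.0% (adjusted p = 0.000127). Hars rose to 117% (adjusted p = 0.00202), Kars to 115% (adjusted p = 0.00748) and Rars to 111% (adjusted p = 0.0184), the calls of Kars and Rars being lost with quantile normalization and that of Rars also with TPM and without control replicate 1 or 2. These are limma values with adjustment over all genes.

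Other genes ascribed to ATF4 or CHOP were mixed. Of 15 tested, 9 fell and 3 rose, against 16.9% lower and 22% higher among all genes tested, with a median of -0.25. Eif4ebp1, the translation repressor 4E-BP1, fell to 64.8 ± 4.24 FPKM with acetate, against 99.3 ± 1.22 FPKM in control (limma adjusted p = 0.000242). Herpud1, of endoplasmic reticulum protein degradation, fell to 28.3 ± 0.837 FPKM, against 38.4 ± 1.42 FPKM (adjusted p = 0.000436), and Rhbdd1, a rhomboid protease, to 5.59 ± 0.379 FPKM, against 10.04 ± 0.975 FPKM (adjusted p = 0.000469). The death gene Bcl2l11, which encodes BIM and is known as a CHOP target, moved the other way from Ddit3 and rose to 6.78 ± 0.366 FPKM, against 4.58 ± 0.0369 FPKM in control (adjusted p = 0.000639). The other death genes of this list, named after their values were seen, did not rise. Bbc3 fell to 31.4 ± 1.78 FPKM with acetate, against 41.2 ± 0.618 FPKM in control (limma adjusted p = 0.000944). Tnfrsf10b and Pmaip1 did not pass (limma adjusted p = 0.99 and 0.653). Ero1l, an oxidase of the endoplasmic reticulum, averaged 36.6 ± 1.1 FPKM and 32.6 ± 1.32 FPKM (adjusted p = 0.0216), lost with quantile normalization, with the replicate block, with TPM, and without acetate replicate 1 or 2 or control replicate 1 or 2. Klf9 averaged 2.53 ± 0.261 FPKM and 1.96 ± 0.154 FPKM (adjusted p = 0.0448), lost with the replicate block, with no filter, with TPM, with voom and when any library was left out.

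The ATF6 and XBP1 branches of the unfolded protein response, which raise folding capacity in the endoplasmic reticulum, moved in both directions. Of 19 tested, 4 fell and 7 rose, against 16.9% lower and 22% higher among all genes tested, with a median log2 change of 0.08. After rescaling to TPM 5 fell and 3 rose and the median was 0.01, and with quantile normalization 6 fell and 3 rose, so the balance of the list turned with the scaling. The difference of this list from the ATF4 genes was not tested. Sdf2l1, a chaperone cofactor, rose to 80.4 ± 6.93 FPKM with acetate, against 57.4 ± 3.48 FPKM in control (limma adjusted p = 0.0019), Dnajc3 to 26.5 ± 1.32 FPKM, against 20.8 ± 0.333 FPKM (adjusted p = 0.00129), and Dnajb11 to 55.2 ± 0.612 FPKM, against 43.9 ± 1.83 FPKM (adjusted p = 0.00102). The sensor genes Atf6 and Ern1, which encodes IRE1, fell to 2.09 ± 0.191 FPKM, against 3.32 ± 0.105 FPKM (adjusted p = 0.0021), and to 1.57 ± 0.149 FPKM, against 2.42 ± 0.03 FPKM (adjusted p = 0.00486). Sel1l, of protein degradation, fell to 16.6 ± 1.03 FPKM, against 19.5 ± 0.676 FPKM (adjusted p = 0.0139), a call lost without acetate replicate 2. Hspa5, the main chaperone BiP, averaged 275 ± 4.5 FPKM and 263 ± 4.08 FPKM and Xbp1 46.3 ± 1.14 FPKM and 43.7 ± 1.03 FPKM, and neither passed (adjusted p = 0.217 and 0.12).

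Paralogs of the 10 genes were also not far from all genes tested in their calls. Of 9 tested, 1 fell and 3 rose, against 16.9% lower and 22% higher among all genes tested. Their median log2 change was -0.01, beside 0.02 for all genes tested. Trib1, a relative of Trib3, averaged 2.36 ± 0.179 FPKM with acetate and 1.75 ± 0.0659 FPKM in control (limma adjusted p = 0.0212), lost with the replicate block, with no filter, with TPM, and without acetate replicate 2 or 3 or control replicate 1 or 2, and Trib2 2.26 ± 0.17 FPKM and 2.76 ± 0.184 FPKM (adjusted p = 0.0636). Chac2, a relative of Chac1, averaged 2.35 ± 0.639 FPKM and 2.35 ± 0.18 FPKM (adjusted p = 0.946). The lipoprotein receptor gene Lrp8, a relative of Vldlr, rose to 5.06 ± 0.146 FPKM with acetate, against 3.87 ± 0.151 FPKM in control (adjusted p = 0.00345). Fosl2, a bZIP relative of Atf3, fell to 5.92 ± 0.216 FPKM, against 9.66 ± 0.0519 FPKM (adjusted p = 0.000135), while Fos, Fosl1 and Jdp2 did not pass (adjusted p = 0.476, 0.877 and 0.937). Nupr1l, the relative of Nupr1, and Cebpa, Cebpe and Fosb were below the filter and were not tested.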

How the data were processed

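Per the submitters' processing notes, reads were trimmed or aligned with tools named as cutadapt 1.18 and HISAT2 2.1.0 and the build mm10, while the deposited table carries gene identifiers and positions of the strain C57BL/6NJ; for the counting tool and its strand setting no source used here gives a name. The authors deposited FPKM values per library. Values times gene length were whole multiples of 1 step in each library (100% of values, tolerance 0.01 reads), which gave the read numbers; up to 40 reads, 64.2% to 65.7% were even numbers, so both ends of a pair appear to have been counted.

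The 10867 genes that averaged 1 FPKM or more were compared as log2(FPKM + 1) in R 4.3.3 by limma 3.58.1, using an abundance trend, group as the only term, two-sided tests, Benjamini-Hochberg adjustment and a threshold of 0.05. This scale understates the change of low genes. The 10 genes and all lists were chosen with earlier results of these data known, and no set test was run. Named were the 10 genes, the up to 3 called genes of lowest p per direction and list, all tested paralogs and the 5 genes most like Atf4 and Trib3; other genes were named after their values were seen. A few genes that the rule names are left out here. On simulated data for 10867 genes the acetate against control test recovered 84% of 1.5-fold and 98% of 2-fold changes. The simulation gave every gene the same low spread between replicates and changed only 200 genes, so recovery in these libraries can be lower. Of tests on recovered reads, limma voom was run, an alternative added after the data were seen. DESeq2 and edgeR were planned but not run, being kept for deposited counts.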

Additional observations from a re-analysis of the deposited data

How the results depend on the processing

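All 9 tested genes of the ATF4 response kept their direction under the 12 alternatives run, and 8 of them, Cebpb being the exception, kept their call. Trib3 ran from -2.38 to -2.12 on the log2 scale, Ddit3 from -1.79 to -1.62, Nupr1 from -2.48 to -1.60, and Atf4 from -0.64 to -0.52. Cebpb ran from -0.47 to -0.26 with adjusted p of 0.00489 to 0.0946 (limma). Of the 9 genes, 8 to 9 were called lower when 1 library was left out. Over all genes, 1836 lower became 2873 with limma voom on recovered reads, an alternative chosen after the data were seen, and 2393 higher became 1396 after rescaling to TPM; leaving out 1 library gave 1359 to 1697 lower and 1710 to 2290 higher.

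Counts of small lists moved more. Lower eIF2 alpha genes were 2 with quantile normalization, 3 with TPM and 2 with voom, and lower paralogs 2 with TPM and 2 with voom. Higher amino acid genes were 0 with no filter, with the replicate block and with TPM, and 0 to 1 without 1 library. Higher tRNA synthetases were 1 with quantile normalization. Higher genes among others ascribed to ATF4 or CHOP were 1 with the replicate block and 1 with TPM, and 1 to 2 without 1 library. Higher ATF6 and XBP1 genes were 3 with quantile normalization, 3 with TPM and 4 with voom, and 3 to 7 without 1 library, while lower ones were 2 to 4. Higher bZIP genes were 2 with no filter, 2 with quantile normalization and 1 with TPM, and 2 to 4 without 1 library. The causes were not tested.

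Deviations of same-numbered acetate and control libraries from their group means correlated at -0.054, 0.026 and -0.039, so no shared replicate effect was seen. These values cannot tell whether same-numbered libraries came from 1 source. With the replicate block, 8 of the 9 genes were lower, with adjusted p = 0.055 for Cebpb, and 1548 genes were lower and 2052 higher over all. DESeq2 and edgeR were planned on recovered reads but not run, being kept for deposited counts; voom was run in their place. Vldlr, at up to 46 reads a library, is limited by depth.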

Other observations

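Other bZIP factor genes, which can pair with or compete with ATF4, CHOP and ATF3, moved in both directions. Of 23 tested, 9 fell and 4 rose with acetate, against 16.9% lower and 22% higher among all genes tested, with a median log2 change of -0.03, beside 0.02 for all genes tested. Nfe2l1, which drives proteasome genes, fell to 38.0 ± 1.03 FPKM with acetate, against 62.6 ± 2.49 FPKM in control (limma adjusted p = 9.51e-05, SD, n = 3 each). Nfil3 fell to 16.2 ± 0.625 FPKM, against 25.8 ± 1.62 FPKM (adjusted p = 0.000245), and Creb3l2 to 1.63 ± 0.108 FPKM, against 2.92 ± 0.219 FPKM (adjusted p = 0.00135). Jund rose to 57.9 ± 3.69 FPKM, against 42.4 ± 0.766 FPKM in control (adjusted p = 0.000739). Atf6b averaged 34.5 ± 0.845 FPKM and 29.9 ± 1.8 FPKM (adjusted p = 0.0159), a call lost with TPM and with quantile normalization, and Mafk 13.9 ± 0.691 FPKM and 11.9 ± 0.821 FPKM (adjusted p = 0.0306), a call lost with the replicate block, with no filter, with TPM, and without acetate replicate 1 or 3 or control replicate 3. Jun and Junb, named after their values were seen, averaged 41.8 ± 0.588 FPKM and 42.8 ± 0.79 FPKM, and 182 ± 14 FPKM and 174 ± 2.07 FPKM, and did not pass (adjusted p = 0.474 and 0.404).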
